A study of Mus musculus with 6 samples.

Results

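Oxidative phosphorylation genes were taken as the protein-coding genes of the GENCODE M21 mouse annotation whose symbol begins with Nduf, Uqcr, Atp5 or mt-, or is Sdha, Sdhb, Sdhc or Sdhd, or begins with one of the prefixes Cox4 to Cox8. The rule gave 107 genes, of which 94 are nuclear and 13 lie in the mitochondrial genome (the mt genes). Of these, 106 were found by Ensembl identifier among the 49315 genes of the count table, 93 nuclear and 13 mt. A second Ensembl identifier with the symbol Atp5o was not analysed here. The edgeR filter on low counts left 18079 genes for testing, among them 99 members (89 nuclear and 10 mt), and 7 members did not pass it.

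RNA was measured by RNA-seq in the medial ganglionic eminence (MGE), the ventral forebrain region that generates most cortical interneurons, at embryonic day 14. The 3 WT libraries came from Nkx2.1-Cre; Prdm16+/+; Ai14 embryos and the 3 KO libraries from Nkx2.1-Cre; Prdm16fl/fl; Ai14 embryos, so both groups carried the Cre driver and the Ai14 Cre reporter. Every library represents 1 pooled sample of 3 embryos (6 eminences). Nkx2.1-Cre recombines in the Nkx2-1 lineage, so cells of other lineages in the dissected tissue, such as blood vessels, blood and microglia, keep an intact Prdm16. In bulk tissue of this kind, fewer cells of a type and less RNA per cell cannot be told apart.

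Oxidative phosphorylation is carried out in the inner mitochondrial membrane by the respiratory complexes and ATP synthase. Complex I (NADH dehydrogenase, Nduf and mt-Nd genes) and complex II (succinate dehydrogenase, Sdh genes) pass electrons to coenzyme Q, complex III (Uqcr genes and mt-Cytb) passes them to cytochrome c, and complex IV (cytochrome c oxidase, Cox and mt-Co genes) passes them to oxygen. Complexes I, III and IV pump protons, and ATP synthase (Atp5, mt-Atp6 and mt-Atp8) uses the proton gradient to make ATP. Most subunits are encoded in the nucleus and imported, while a small hydrophobic core is transcribed inside the mitochondrion from long polycistronic precursors. In the embryonic forebrain, radial glia are regarded as relying more on glycolysis, and neuronal differentiation is accompanied by a rise in mitochondrial respiration. PRDM16, a zinc-finger transcriptional regulator of radial glia in the brain, is known in brown fat as an inducer of the thermogenic programme, in which it works with the coactivator PGC-1alpha (Ppargc1a).

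Total gene counts ranged from 33188277 to 55552298 per library. Prdm16 itself measured 55.8, 47.0 and 45.5 CPM (the gene's counts scaled to the TMM-adjusted size of the library) in the WT pools and 53.6, 51.3 and 45.8 CPM in the KO pools. Its log2 fold change, KO over WT here and throughout, was 0.02 (SE 0.09, edgeR quasi-likelihood adjusted p = 0.884), so the gene count did not check the labels. The sources used here do not say which part of Prdm16 the Cre removes. KO 1 stood apart from the other KO libraries on the second principal component (16.1% of the variance), at -35.0 against 11.6 and 12.4. The first component (55.9%) separated KO from WT. On it KO 1 lay at 15.9, KO 2 at 35.4 and KO 3 at 37.2, with WT at -28.3, -31.0 and -29.3. Values without KO 1 are therefore given for the counts of members and for named nuclear members whose call it changes. The 5 MGE markers (Nkx2-1, Lhx6, Lhx8, Dlx1 and Dlx2) were all present, with summed levels of 3420 to 3650 CPM in WT and 2970 to 3410 CPM in KO. Of these markers, 1 was higher and 2 were lower in KO at an adjusted p under 0.05.

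A large share of the nuclear oxidative phosphorylation genes was modestly higher in the KO pools, with calls in each of complexes I to IV and in ATP synthase. Of the 89 tested, 43 (48.3%) were called higher and 0 lower at a Benjamini-Hochberg adjusted p under 0.05, where 9.72% of all 18079 genes were called higher and 10.5% lower. Their median log2 fold change was 0.24 (1.18-fold), against -0.002 over all genes tested, and 86 of the 89 values were positive. The called genes rose by 1.16-fold to 1.63-fold. In 57 of the 89 genes every KO library lay above every WT library, a pattern met by 20.3% of all genes. At an unadjusted p under 0.05, 63 nuclear members were higher and 0 lower, against 18.2% of all genes higher and 18.5% lower. These background shares cover genes of every length and level, whereas the members are mostly short and well expressed. Among other genes with a mean of at least 20 CPM, 43.7% of those with up to 1000 exonic bases were called higher. The share was 40.3% for 1001 to 2000 bases.

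**Figure D1:**
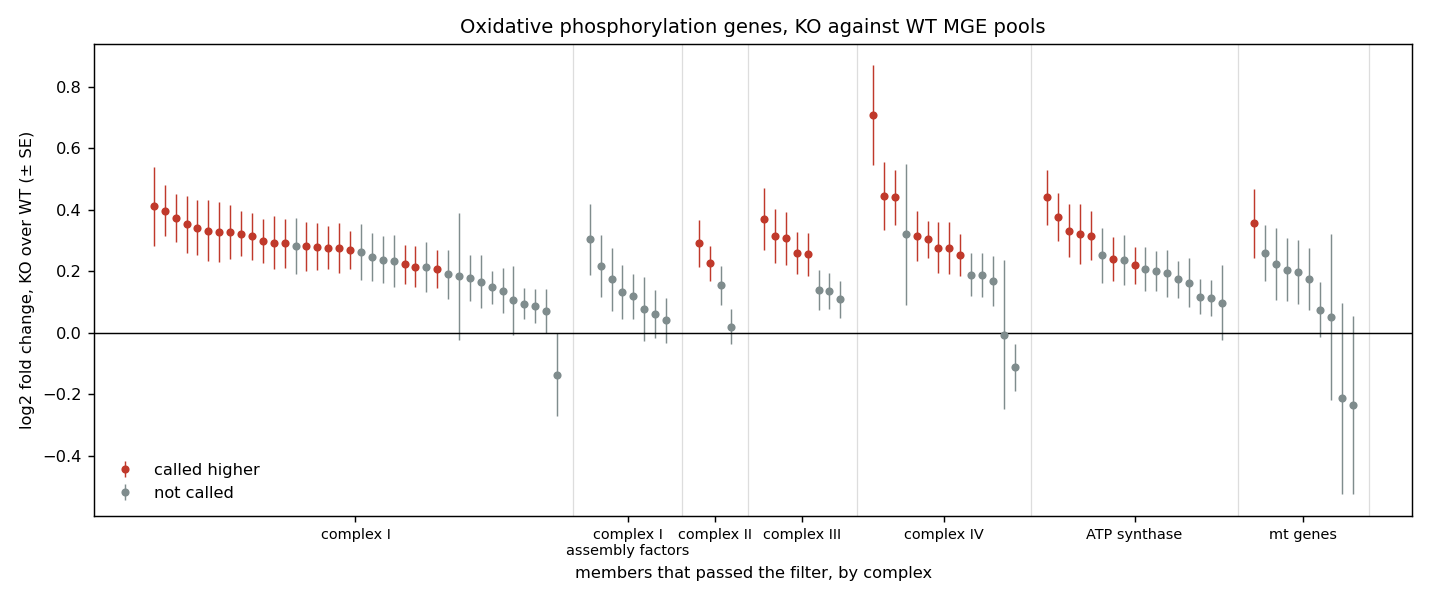
Log2 fold change, KO over WT, with its standard error (vertical axis) for the 99 members that passed the filter, grouped by complex (horizontal axis) and sorted within each; red points were called higher at an adjusted p under 0.05. Most points lie above 0, 43 nuclear genes and 1 mt gene are red, and no point was called lower.

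The number of calls depended strongly on single libraries. Without KO 1, 73 nuclear members were called higher, including all 43 of the full fit, and 0 lower, while 20.6% of the 18213 genes tested were called higher and 20.9% lower. Leaving out WT 2 left 1 nuclear call, leaving out KO 2 left 4, leaving out WT 3 left 5, leaving out KO 3 left 6 and leaving out WT 1 left 12, and the numbers of genes called higher overall fell to between 464 and 810. The nuclear median log2 fold change stayed between 0.19 and 0.32 over these 6 fits.

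The size of the rise differed between the KO libraries. The median nuclear member lay 0.08 above the WT mean on the log2 scale in KO 1, 0.28 in KO 2 and 0.35 in KO 3, and the WT libraries lay at 0.02, -0.06 and 0.04. KO 1 was the lowest KO library for 85 of the 89 genes. It lay above the WT range for 58, within it for 24 and below it for 7, whereas KO 2 and KO 3 both exceeded the WT range for 83. The shares of all genes with these positions were not counted, so they are not read as particular to the members. Other genes with a mean of at least 20 CPM had medians of 0.08, 0.31 and 0.40 in KO 1, KO 2 and KO 3 up to 1000 exonic bases. Above 4000 bases these medians were -0.01, -0.06 and -0.08. In sum, nuclear members took 0.776%, 0.744% and 0.782% of all gene counts in the WT libraries and 0.808%, 0.898% and 0.923% in the KO libraries, a mean of 0.767% ± 0.021 against 0.876% ± 0.061 (SD, n = 3 each). The ratio of these means was 1.14, and 1.19 without KO 1.

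**Figure D2:**
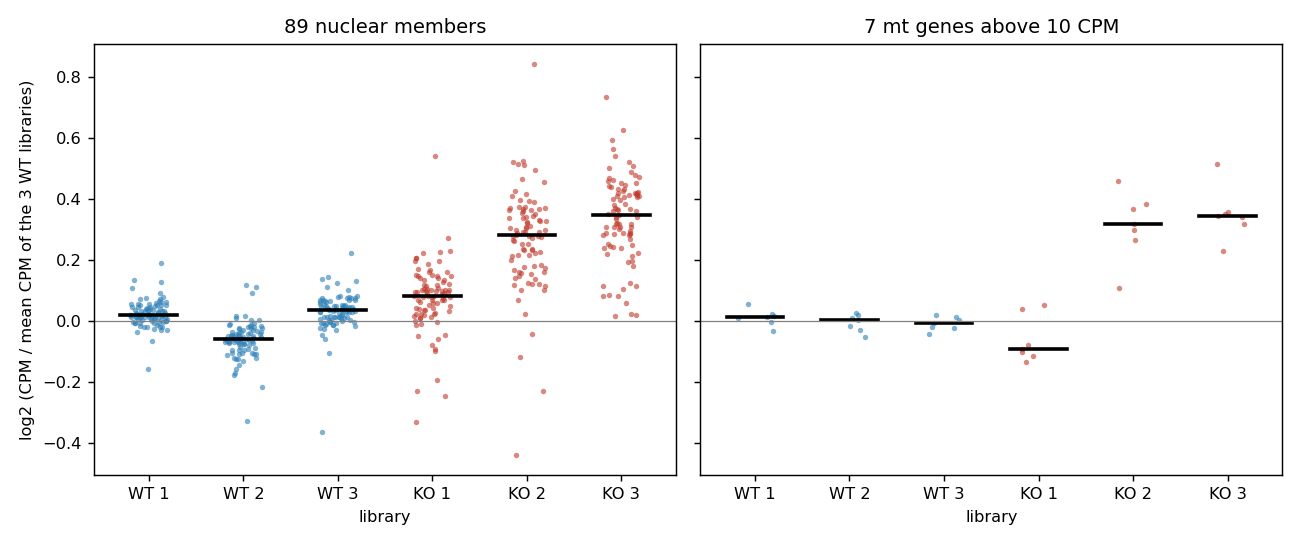
Each point is 1 gene in 1 library, as log2 of its CPM over the mean of the 3 WT libraries (vertical axis), for the 89 nuclear members (left) and the 7 mt genes above 10 CPM (right); bars are medians. KO 2 and KO 3 sit at medians of 0.28 and 0.35 for nuclear members and 0.32 and 0.35 for mt genes, while KO 1 sits at 0.08 and -0.09.

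Of the 38 tested nuclear subunit genes of complex I by symbol, 21 (55.3%) were higher (median log2 fold change 0.27), among them 2 of the 7 core subunits that carry the redox reaction (median 0.19) and 18 of 29 accessory subunits (median 0.28). None of the 8 Ndufaf assembly factors was called (median 0.13, 1 of them at an unadjusted p under 0.05). Whether core and accessory subunits or assembly factors differ in response was not tested. The counts for each complex, here and below, stand beside 9.72% of all genes called higher and are not matched for exonic length.

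Ndufc1, a small accessory subunit of the complex I membrane arm (GRCm38 chr3:51404677-51408988), measured 30.9, 30.7 and 32.0 CPM in WT and 36.0, 42.8 and 44.4 CPM in KO. All KO pools were above all WT pools, with KO 1 the lowest of them. The rise was 1.32-fold (log2 0.40, SE 0.08, adjusted p = 0.0122) and 0.49 on the log2 scale without KO 1.

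Ndufb7, an accessory subunit on the intermembrane-space side of the membrane arm (chr8:83566671-83571626), measured 58.9, 53.7 and 61.4 CPM in WT and 67.8, 76.1 and 81.4 CPM in KO. The groups did not overlap. Its log2 fold change was 0.37 (SE 0.08, adjusted p = 0.0127), and 0.45 without KO 1. Ndufa13, an accessory subunit also known as GRIM-19, rose from a mean of 48.0 ± 1.98 to 59.96 ± 5.24 CPM (log2 0.32, adjusted p = 0.0168). Part of the Ndufa13 locus, 30.0% of its exonic bases, overlaps the oppositely oriented gene Tssk6, which had 984 counts against 13878 for Ndufa13.

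Further accessory subunits among the 15 members with the smallest p were Ndufa7, Ndufa3 and Ndufv3. Ndufa7 averaged 59.0 ± 2.17 CPM in WT and 72.7 ± 6.42 CPM in KO (adjusted p = 0.0198). For Ndufa3 the means were 41.3 ± 2.09 and 51.4 ± 4.57 CPM (adjusted p = 0.0213). Ndufv3, which sits in the NADH-oxidising flavoprotein module, had means of 36.2 ± 1.55 and 43.8 ± 2.94 CPM (adjusted p = 0.0238). Each had KO 1 as its lowest KO library and no overlap between groups, as did all 43 genes called. Ndufc2, a membrane-arm partner of Ndufc1 and the nuclear complex I subunit with the highest level per length (98.0 CPM per kilobase of exonic sequence, mean over the 6 libraries), rose by 0.28 on the log2 scale (SE 0.08, adjusted p = 0.0414). The assembly factor with the highest level per length, Ndufaf3, had 12.2 CPM per kilobase and a log2 fold change of 0.12 (SE 0.07, adjusted p = 0.274).

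In complex II, 2 of 4 genes were called (median log2 fold change 0.19). Sdhd, a membrane anchor that holds part of the coenzyme Q site (chr9:50596357-50603812), measured 56.1, 55.4 and 56.4 CPM in WT and 61.8, 68.1 and 66.6 CPM in KO. The WT pools differed by little from each other, and all KO pools were higher. Its log2 fold change was 0.23 (SE 0.06, adjusted p = 0.0240), and the call was lost in 8 of 17 alternative fits. Sdhc, the other anchor, had a log2 fold change of 0.29 (adjusted p = 0.0280), and the catalytic flavoprotein Sdha had 0.02 (adjusted p = 0.830); these genes were picked for mention after their values were seen. Sdhb, the iron-sulfur subunit and the complex II gene with the highest level per length, averaged 116.6 ± 4.02 CPM in WT and 130 ± 8.75 CPM in KO (log2 0.15, SE 0.06, adjusted p = 0.107). It was called higher without KO 1, at 0.21.

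In complex III, 5 of 8 nuclear genes were higher (median log2 fold change 0.26). Uqcrfs1 encodes the Rieske iron-sulfur protein and had the highest level per length of the nuclear genes of the complex, 75.0 CPM per kilobase. It measured 92.9, 88.3 and 98.0 CPM in WT and 103, 112 and 119.8 CPM in KO, again with KO 1 lowest and no overlap. The log2 fold change was 0.26 (SE 0.07, adjusted p = 0.0280).

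Complex IV held the gene with the smallest p among the members and the gene with the widest fold. Of 14 nuclear genes tested, 8 were higher (median log2 fold change 0.28). Cox5a (chr9:57521274-57532426), a nuclear-encoded structural subunit, measured 81.4, 80.0 and 80.5 CPM in WT and 92.5, 101 and 105 CPM in KO. The WT pools were closely spaced and every KO pool was higher, for a log2 fold change of 0.30 (SE 0.06, adjusted p = 0.00955). Gm26631 overlaps 12.8% of the exonic bases of Cox5a on the opposite strand and had 840 counts against 23092. The counting settings are not stated, so it is unknown whether reads in the shared bases were assigned or left out.

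Cox5b (chr1:36691449-36693681), the zinc-binding subunit, measured 98.2, 93.4 and 98.9 CPM in WT and 112, 137 and 146 CPM in KO. The groups were separated and KO 1 was closest to WT, with a log2 fold change of 0.44 (SE 0.09, adjusted p = 0.0115), or 0.55 without KO 1. Cox7c, a small accessory subunit, rose from 88.3, 80.6 and 91.4 CPM to 96.2, 124 and 134 CPM (log2 0.44, SE 0.11, adjusted p = 0.0249). KO 1 exceeded the highest WT value of Cox7c by less than the WT range. Ndufa4, named for complex I but known to be a subunit of complex IV, rose from a mean of 88.1 ± 2.59 to 106 ± 7.12 CPM (log2 0.27, adjusted p = 0.0176).

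Several complex IV subunits exist as a ubiquitous form and a tissue-restricted form, and the ubiquitous forms made up nearly all of the RNA here. Per kilobase, Cox4i1 made up 99.4% of the level of its pair and the lung-enriched, low-oxygen form Cox4i2 0.649%. The testis form Cox6b2 made up 2.49% against 97.5% for Cox6b1, and the muscle form Cox7a1 made up 0.720% beside 52.4% for Cox7a2 and 46.9% for Cox7a2l. Cox6a1 made up 99.99% of its family, Cox7b 99.86% and Cox8a 99.98%. Their restricted partners did not pass the filter, with total counts over all 6 libraries of 4 for Cox6a2 (heart and muscle), 11 for Cox7b2 (testis), 3 for Cox8b (heart and muscle) and 0 for Cox8c (testis).

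Among these isoforms, Cox6b2 had the largest fold of any tested member, at a low level. It measured 3.75, 3.56 and 2.56 CPM in WT and 4.78, 5.90 and 5.47 CPM in KO, and no KO pool reached down to the WT range. The fold was 1.63 (log2 0.71, SE 0.16, adjusted p = 0.0172). Its ubiquitous counterpart Cox6b1 rose by 0.25 on the log2 scale (SE 0.07, adjusted p = 0.0321), Cox8a by 0.31 (SE 0.08, adjusted p = 0.0252) and Cox7b by 0.28 (SE 0.08, adjusted p = 0.0456).

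The other isoforms of complex IV subunits were not called in the fit of all 6 libraries. Cox4i1, the nuclear complex IV gene with the highest CPM, had a log2 fold change of 0.19 (SE 0.07, adjusted p = 0.0933), and Cox6a1, the highest nuclear one per length at 223.7 CPM per kilobase, 0.17 (SE 0.08, adjusted p = 0.169). Cox7a2 had 0.19 (SE 0.07, adjusted p = 0.0854), Cox7a1 0.32 (SE 0.23, adjusted p = 0.339) and Cox4i2 -0.01 (SE 0.24, adjusted p = 0.990). Without KO 1, Cox4i1 (0.26), Cox6a1 (0.26) and Cox7a2 (0.27) were called higher and Cox7a1 and Cox4i2 were not. Cox4i2 lay at 0.802, 0.836 and 1.04 CPM in WT and 0.858, 0.659 and 1.11 CPM in KO, with wide overlap. Ndufa4l2, a low-oxygen-induced paralogue of Ndufa4 that made up 3.90% of that pair, had -0.14 (SE 0.13, adjusted p = 0.496). Cox7a2l, a factor for assembling supercomplexes of complexes III and IV, was the third nuclear member with a negative value.

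Cox7a2l measured 125, 109.8 and 117 CPM in WT and 98.8, 108 and 118.5 CPM in KO, with overlap between the groups and KO 1 lowest. Its log2 fold change was -0.11 (SE 0.08, adjusted p = 0.314). A copy annotated under the name Gm6969 is 98.0% identical to it over 342 bases and had 21.6% as many counts, so the split of reads between them is uncertain.

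In ATP synthase, 7 of 17 genes (41.2%) were called higher and all 17 values were positive (median log2 fold change 0.22). Of other genes with 1001 to 2000 exonic bases and at least 20 CPM, 40.3% were called higher, with a median of 0.23. The count is therefore not read as particular to ATP synthase. The called genes included 1 of the 5 genes of the catalytic F1 head and central stalk (median 0.16) and 2 of the 3 genes for the rotating c ring. Atp5k (chr5:108433244-108434448), subunit e at the dimer interface of the membrane part, measured 40.9, 33.9 and 37.6 CPM in WT and 45.2, 53.7 and 53.7 CPM in KO. Even KO 1 was above the highest WT pool, and the log2 fold change was 0.44 (SE 0.09, adjusted p = 0.0116).

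Atp5e (chr2:174461072-174464105), the epsilon subunit of the central stalk, measured 81.9, 72.7 and 82.9 CPM in WT and 92.4, 106 and 110.4 CPM in KO. The groups were separated, with a log2 fold change of 0.38 (SE 0.08, adjusted p = 0.0126). Atp5j2, subunit f of the membrane part, rose from a mean of 93.8 ± 4.31 to 117 ± 12.4 CPM (log2 0.32, SE 0.08, adjusted p = 0.0235).

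The alpha subunit of the F1 head, Atp5a1, had the highest level per length of all nuclear members, 235.6 CPM per kilobase. Atp5b had 216.9 CPM per kilobase but the higher CPM, with a WT mean of 883. The WT pools of Atp5a1 measured 726, 692 and 709 CPM and its KO pools 761, 773 and 772 CPM, so the KO pools lay above the WT pools and were closely spaced. The log2 fold change was 0.12 (SE 0.06, adjusted p = 0.167), and 0.13 without KO 1, when it was called higher. The 3 genes that encode the same mature c subunit contributed unequally per kilobase, with 51.9% from Atp5g3, 39.0% from Atp5g2 and 9.05% from Atp5g1. These shares depend on exonic length as a union over annotated transcripts, which is 2181, 1675 and 4912 bases in the same order. The total counts were 47091, 27208 and 18474. The log2 fold changes of the 3 genes were close to each other, 0.24 for Atp5g3 (adjusted p = 0.0402), 0.22 for Atp5g2 (adjusted p = 0.0311) and 0.21 for Atp5g1 (adjusted p = 0.0692). Without KO 1, Atp5g1 was also called higher, at 0.28.

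Promoters of nuclear respiratory genes are known targets of NRF1, of ETS-family factors such as GABP and of YY1, so the promoter windows of the nuclear members were searched for their motifs. RefSeq promoters (GRCm38.p6, 250 bases before to 50 after the start) were matched for 76 of the 93 nuclear members, and 30 of these held at least 1 motif on either strand. The NRF1 motif GCGCATGCG was in 10 of 76 members (13.2%) and in 1.95% of 27025 genes with a window. The ETS motif CCGGAAG was in 18 (23.7%) against 9.93% and the YY1 motif AAGATGGCG in 8 (10.5%) against 1.64%. The ETS and YY1 motifs can share the letters AAG, and NRF1 matches on both strands can overlap; each motif was counted once per gene. Members with and without a motif were called higher at shares that were not tested against each other: 4 of 10 with NRF1 and 34 of 64 without, 11 of 18 with ETS and 27 of 56 without, and 4 of 8 with YY1 and 34 of 66 without. To show how such matches lie, the 150 bases before the RefSeq start are given for 4 members that were called higher, are among the 15 with the smallest p and hold a motif there, with the motif in capitals: Atp5k (chr5:108434400-108434549, minus strand) with the NRF1 motif overlapping on both strands, Atp5e (chr2:174464102-174464251, minus strand) and Sdhd (chr9:50603850-50603999, minus strand) with the ETS motif in reverse complement, and Ndufb7 (chr8:83566608-83566757, plus strand) with it in forward orientation.
Atp5k: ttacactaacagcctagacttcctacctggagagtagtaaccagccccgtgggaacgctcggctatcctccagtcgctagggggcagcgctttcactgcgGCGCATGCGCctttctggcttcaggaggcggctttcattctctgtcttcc
Atp5e: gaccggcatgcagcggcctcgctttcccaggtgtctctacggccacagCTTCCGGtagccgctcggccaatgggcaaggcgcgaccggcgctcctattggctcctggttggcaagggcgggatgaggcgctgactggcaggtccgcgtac
Ndufb7: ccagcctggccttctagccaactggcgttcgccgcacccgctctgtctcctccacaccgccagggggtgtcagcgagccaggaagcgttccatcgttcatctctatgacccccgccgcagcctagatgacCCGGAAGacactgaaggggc
Sdhd: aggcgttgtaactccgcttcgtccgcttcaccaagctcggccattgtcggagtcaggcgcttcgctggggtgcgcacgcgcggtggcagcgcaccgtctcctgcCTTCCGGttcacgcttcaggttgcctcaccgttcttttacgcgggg
In these windows the motif begins 50 bases before the start in Atp5k, 102 in Atp5e, 20 in Ndufb7 and 46 in Sdhd. A match of letters describes the sequence and shows no binding.

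Exonic length, taken as the union over annotated transcripts, moved with the direction of change among genes with a mean of at least 20 CPM. Genes below that level were not grouped by length. Nuclear members are short, with a median exonic length of 1675 bases against 3854 over all genes tested, and well expressed, with a median of 69.1 CPM against 15.9. Among other genes with a mean of at least 20 CPM, 43.7% of the 87 with at most 1000 exonic bases were called higher, 40.3% of the 561 with 1001 to 2000 bases, 20.0% of the 2109 with 2001 to 4000 bases and 6.79% of the 5505 above 4000 bases.

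Set against other genes of their own length, members were called higher in 12 of 17 (70.6%), 15 of 30, 11 of 21 (52.4%) and 3 of 11 (27.3%), in the same order. The median log2 fold changes were close in the shorter 2 classes, at 0.28 for members and 0.27 for other genes up to 1000 bases and at 0.26 and 0.23 for 1001 to 2000 bases. They were farther apart in the long classes, at 0.24 and 0.10 for 2001 to 4000 bases and at 0.20 and -0.05 above 4000 bases. The longest class holds only 11 members and the shortest 17. A union over annotated transcripts can also exceed the length of any single transcript. Ndufab1 (6883 bases) and Ndufb7 (4522 bases) are in the longest class by this measure. The lengths of the transcripts expressed here were not examined, so members in the long classes may be matched with longer genes. In KO 1 the other genes showed a flatter relation with length, with medians of 0.08, 0.08, 0.04 and -0.01 above the WT mean from the shortest class to the longest, than in KO 3 with 0.40, 0.31, 0.14 and -0.08. When each library's trend of expression on exonic length was removed before testing, 26 nuclear members were called higher and 1, Cox7a2l, lower, against 10.2% of all genes higher and 9.39% lower. Of the 43 calls, 22 were kept, and the nuclear median fell to 0.14. The part of length in the members' rise was not tested further.

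**Figure D3:**
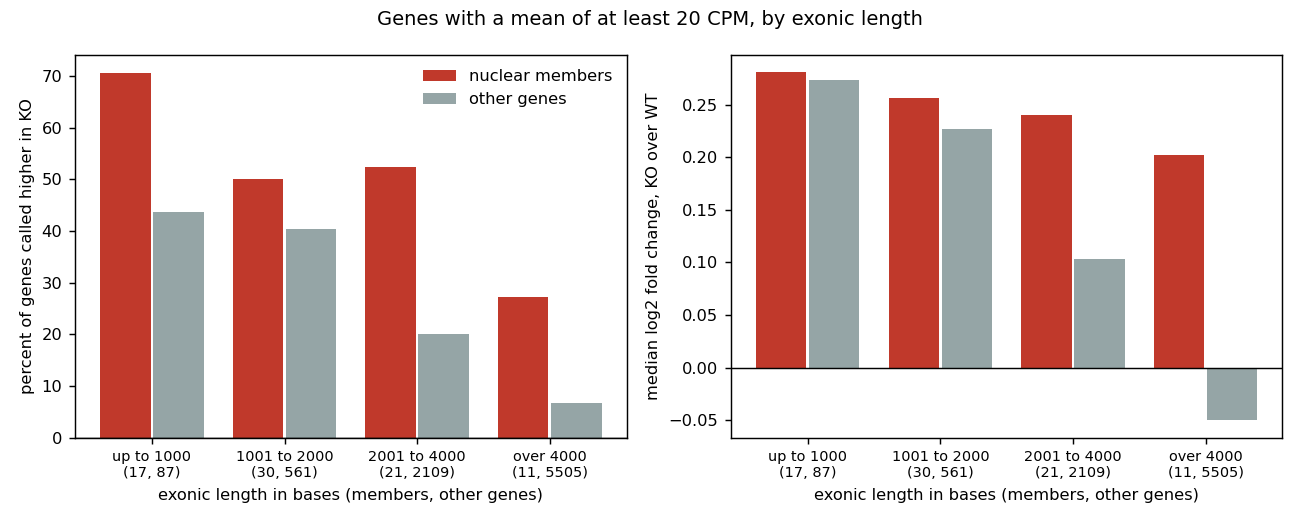
Percent of genes called higher in KO (left) and median log2 fold change (right) by exonic length in bases, for nuclear members (red) and all other tested genes (grey) with a mean of at least 20 CPM; the numbers of genes stand in brackets as members, other genes. Other genes fall from 43.7% to 6.79% called across the classes, and the medians of members and other genes are closest in the 2 classes up to 2000 bases.

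Markers of other cell types also moved with genotype. The 10 radial glia markers, of which 9 were called higher and 1 lower, summed to 1920 to 2030 CPM in WT and 2790, 3170 and 3300 CPM in KO 1, KO 2 and KO 3. For the 9 red blood cell markers, 5 of them higher, the sums were 375 to 441 CPM in WT and 907, 1420 and 1480 CPM in KO. Among the KO pools, KO 1 had the lowest sum of both lists, and also of the MGE and choroid plexus lists. It had the highest sum of the neuron, endothelial, pericyte and microglia lists. The 10 neuron markers (3 lower) summed to 6140 to 6330 CPM in WT and 5510 to 5820 CPM in KO.

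Vascular and immune markers were lower or overlapped. The 8 pericyte markers (7 lower) summed to 225 to 238 CPM in WT and to 251, 188 and 196 CPM in KO 1, KO 2 and KO 3. Sums for the 8 endothelial markers (2 lower) were 200 to 201 CPM in WT and 149 to 180 CPM in KO. Those for the 8 microglia markers (2 lower) were 41.1 to 43.1 and 33.1 to 38.6 CPM. Cortical excitatory markers (4 of 6 higher) summed to 20.2 to 40.8 CPM in WT and 45.7 to 62.6 CPM in KO, and choroid plexus markers (1 of 3 tested higher) to 12 to 14 and 28.2 to 34.9 CPM. No marker in these lists was at 0 in all libraries. The part of cell composition in the members' rise was not tested.

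The mt genes fell into 2 sets by counted level. In order along the mitochondrial genome they are mt-Nd1, mt-Nd2, mt-Co1, mt-Co2, mt-Atp8, mt-Atp6, mt-Co3, mt-Nd3, mt-Nd4l, mt-Nd4, mt-Nd5, mt-Nd6 and mt-Cytb. The 6 consecutive genes from mt-Co2 to mt-Nd4l had between 0 and 0.997 CPM in every library, 523 counts in all. The other 7 genes had between 229 and 5949 CPM and 3189643 counts. Per kilobase of transcript, the low set had 0.258 to 1.05 CPM on average and the high set 508 to 3275 CPM. Of the low set, mt-Atp8 (35 counts), mt-Nd3 (21) and mt-Nd4l (26) did not pass the filter.

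**Figure D4:**
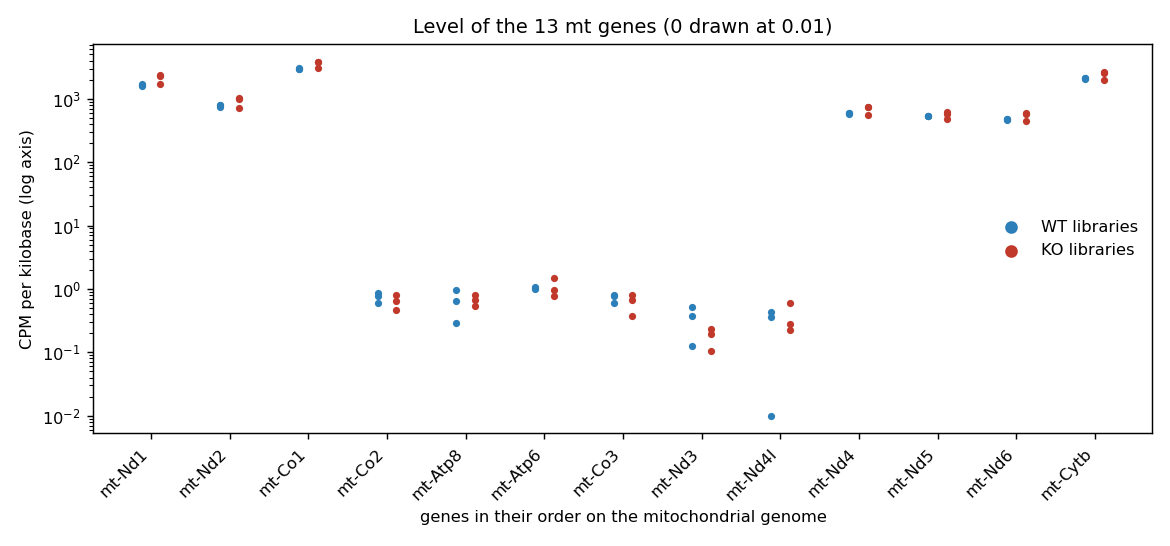
Level of each mt gene in CPM per kilobase of transcript (logarithmic vertical axis, a value of 0 drawn at 0.01), with genes in their order on the mitochondrial genome (horizontal axis) and 1 point per library, WT blue and KO red. The 6 genes from mt-Co2 to mt-Nd4l lie between 0.258 and 1.05 on average and the other 7 between 508 and 3275.

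The low stretch has an annotated copy in the nuclear genome. GENCODE M21 lists 7 unprocessed pseudogenes of mt genes on GRCm38 chr1:24611535-24616197, a span of 4663 bases. Transcript alignment gave 681 of the 684 bases of mt-Co2 at 100% identity in Gm28661, 678 of 681 bases of mt-Atp6 in Gm10925, 783 of 784 bases of mt-Co3 in Gm28437 and 294 of 297 bases of mt-Nd4l in Gm10222, also at 100%. The copy of mt-Nd3, Gm28438, covers 345 of its 348 bases with 1 mismatch. That mismatch is T3C, counted from the 5′ end of the mt-Nd3 transcript (mt-Nd3 base first, then the copy's). The first 60 bases of both GENCODE transcripts are shown because they hold this mismatch, in capitals. Besides it, 3 bases of mt-Nd3 lie outside the alignment.
mt-Nd3: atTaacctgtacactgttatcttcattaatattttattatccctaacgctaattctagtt
Gm28438: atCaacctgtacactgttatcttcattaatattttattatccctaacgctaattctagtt
For mt-Atp8 only 43 of 204 bases lie in an annotated copy. Genes at high levels were covered in part or less closely: Gm28439 covers 876 of 1378 bases of mt-Nd4 at 100% and leaves 502 outside, and Gm29216 covers 483 of 1545 bases of mt-Co1 at 99.8%. The closest copy of mt-Co1 over its whole length, Gm13340 on chromosome 2, is 97.6% identical. Together the 7 copies on chromosome 1 had 13.2 to 16.9 CPM per library and 3784 counts. The sources used here do not say how reads that match several places were counted, and its part in the low levels was not tested. The levels of the 6 low genes are therefore given as counted, and their contrast with the other mt genes is not read as a difference in RNA level.

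Of the 10 mt genes tested, 1 was called higher and 0 lower, beside 9.72% of all genes called higher, so the share called was close to the background. The median log2 fold change was 0.19 over the 10 genes and 0.21 over the 7 at high levels, a division made after the levels were seen. All 7 had positive values. For these 7 genes KO 2 and KO 3 were above the WT range throughout, and KO 1 was below the WT range for 5, within it for 1 and above it for 1. The shares of all genes with these positions were not counted. Without KO 1 all 7 were called higher, beside 20.6% of all genes tested.

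Among the complex I genes, mt-Nd1 encodes a membrane subunit at the coenzyme Q site and measured 1653, 1535 and 1584 CPM in WT and 1649, 2186 and 2273 CPM in KO. KO 1 lay inside the WT range and only KO 2 and KO 3 exceeded it. The log2 fold change was 0.36 (SE 0.11, adjusted p = 0.0489), and the call was lost on leaving out any of the other 5 libraries. For the proton-pumping subunit mt-Nd2 the WT pools had 820.3, 818 and 783 CPM and the KO pools 745, 1053 and 1030 CPM, and for mt-Nd4 they had 789, 822 and 809 CPM and 763, 1006 and 1021 CPM. In both genes KO 1 was the lowest of the 6 libraries. Their log2 fold changes were 0.22 (SE 0.12, adjusted p = 0.193) and 0.21 (SE 0.10, adjusted p = 0.179).

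For mt-Nd5, the largest of these subunits, the WT pools measured 988, 979 and 960 CPM and the KO pools 889.5, 1051 and 1144 CPM. This was the smallest change of the 7, at 0.08 (SE 0.09, adjusted p = 0.571). mt-Nd6, the only protein gene on the opposite strand, measured 247, 247 and 242 CPM in WT and 229, 302 and 314 CPM in KO (log2 0.20, SE 0.10, adjusted p = 0.197). The sources used here do not state a strand setting for the counting, and without one antisense reads over mt-Nd6 cannot be separated from its own.

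mt-Cytb, the cytochrome b of complex III, measured 2453, 2381 and 2451 CPM in WT and 2279, 2922 and 3028 CPM in KO (log2 0.18, SE 0.10, adjusted p = 0.237). mt-Co1, the catalytic subunit of complex IV with 3275 CPM per kilobase, measured 4597, 4550 and 4673 CPM in WT and 4737, 5949 and 5853 CPM in KO. It was the only mt gene for which all KO pools exceeded all WT pools, and its log2 fold change was 0.26 (SE 0.09, adjusted p = 0.0717). The 3 tested genes of the low set had log2 fold changes of -0.23 for mt-Co2 (SE 0.29), -0.21 for mt-Co3 (SE 0.31) and 0.05 for mt-Atp6 (SE 0.27), none called and each less than 1 SE from 0.

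As a share of all gene counts, the mt genes took 1.15%, 1.14% and 1.16% in WT and 1.12%, 1.44% and 1.46% in KO, a mean of 1.15% ± 0.00656 against 1.34% ± 0.189 (SD, n = 3 each). KO 1 was below every WT library and the other KO pools were well above. The ratio of mt to nuclear member counts was 1.48, 1.54 and 1.48 in WT and 1.39, 1.61 and 1.58 in KO. It lay below the WT range in KO 1 and above it in KO 2 and KO 3. Both shares exceeded every WT library in KO 2 and KO 3, while in KO 1 only the nuclear share did. Nearly all of the mt counts came from the 7 genes at high levels (3189643 counts, against 523 for the 6 low genes). The share and the ratio thus describe these 7 genes as counted and not the whole set of 13. These shares were not tested.

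Genes that support the respiratory chain were described by lists, each set beside the 9.72% of all genes called higher. The lists were not matched for exonic length or level. Mitochondrial ribosomal proteins, which translate the mt genes, showed 31 of 78 (39.7%) higher and 0 lower (median log2 fold change 0.23). Other genes of 1001 to 2000 exonic bases and at least 20 CPM showed 40.3% higher and a median of 0.23. The smallest p belonged to Mrpl58, the peptidyl-tRNA hydrolase also known as ICT1, which measured 45.4, 46.1 and 48.1 CPM in WT and 57.1, 68.4 and 69.5 CPM in KO (log2 0.48, SE 0.08, adjusted p = 0.00427). The groups were well separated. Mrpl2 and Mrpl16, proteins of the large subunit, were 1.26-fold (adjusted p = 0.0120) and 1.28-fold (adjusted p = 0.0173) higher.

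Assembly factors outside the rule had 7 of 37 higher and 0 lower (median 0.14). Sdhaf1, which helps to insert the iron-sulfur clusters of complex II, was 1.44-fold higher (adjusted p = 0.0142), the complex IV factor Pet100 1.37-fold (adjusted p = 0.0153) and the complex III factor Uqcc2 1.30-fold (adjusted p = 0.0287). Electron carriers and coenzyme Q synthesis genes had 4 of 15 higher and 0 lower (median 0.16). These included Coq7, the hydroxylase late in coenzyme Q synthesis, at 1.33-fold (adjusted p = 0.0104), the prenyltransferase Coq2 at 1.22-fold (adjusted p = 0.0311) and cytochrome c itself, Cycs. Cycs measured 61.3, 59.4 and 62.3 CPM in WT and 64.9, 79.5 and 78.0 CPM in KO (log2 0.28, SE 0.08, adjusted p = 0.0336). KO 1 was only slightly above the WT pools.

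In the tricarboxylic acid cycle, which supplies NADH and succinate to the chain, 3 of 14 genes were higher and 0 lower (median 0.11). They were the succinyl-CoA ligase genes Sucla2 (1.18-fold, adjusted p = 0.0161) and Suclg1 (1.20-fold, adjusted p = 0.0194) and malate dehydrogenase Mdh2 (1.17-fold, adjusted p = 0.0487). The mitochondrial DNA and RNA machinery had 2 of 29 higher and 2 lower (median 0.08), near the background in number. Ssbp1, the mitochondrial single-stranded DNA-binding protein, was 1.26-fold higher (adjusted p = 0.0262), and Slirp, an RNA-binding protein that stabilises mitochondrial mRNA, 1.34-fold higher (adjusted p = 0.0296). Twnk, the replicative helicase, fell by 0.21 on the log2 scale (SE 0.06, adjusted p = 0.0410).

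Among 11 regulators of mitochondrial biogenesis, 0 were called higher and 1 lower (median -0.04). The 1 lower gene was Ppargc1a, at 10.9, 14.97 and 13.5 CPM in WT and 8.33, 6.53 and 6.63 CPM in KO. All KO pools were below all WT pools, with a log2 fold change of -0.87 (SE 0.14, adjusted p = 0.00419). Ppara, a fatty acid receptor counted at under 1 CPM, had a log2 fold change of -1.11 (SE 0.40, adjusted p = 0.0754), and the transcription factor Yy1 had 0.16 (SE 0.06, adjusted p = 0.101).

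Of 10 genes of the brown fat programme, 4 passed the filter, and the 1 called gene was again Ppargc1a. The uncoupling protein Ucp1, the defining gene of brown fat, lay at 0.182 ± 0.122 CPM in WT and 0.336 ± 0.079 CPM in KO (adjusted p = 0.220), and the transcription factor Cebpb at 0.363 ± 0.099 and 0.595 ± 0.207 CPM (adjusted p = 0.166). Neither was called.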

How the data were processed

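Raw read counts per Ensembl gene were deposited by the authors as 1 table for all 6 libraries. The submitters' processing notes name GRCm38 as the build and list STAR 2.5.2b, Trimmomatic 0.36, Subread 1.5.2 with featureCounts, and DESeq2. The annotation release, strand setting and treatment of multiply matching reads are not stated there. A deposited table of normalized values was not used. Groups and pools came from the labels. Symbols, positions and exonic lengths (the union over annotated transcripts) came from GENCODE M21, which held 49056 of the 49315 gene identifiers.

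Counts were filtered with filterByExpr (minimum count 10, minimum total 15), scaled with TMM and tested over all 18079 genes by edgeR's robust quasi-likelihood test (R 4.3.3 with edgeR 4.0.16, limma 3.58.1 and DESeq2 1.42.0). P-values were adjusted by Benjamini-Hochberg with a threshold of 0.05, and every adjusted p in the text comes from this test. SE is the absolute log2 fold change divided by the square root of F. Tested on simulated counts for 17832 genes, 88% of genes changed 1.5-fold and 100% of those changed 2-fold were recovered, and 8.29% of calls were false. No smaller fold was simulated.

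Members, lists and marker genes were chosen with earlier results of these data known. Named are Prdm16, the 13 mt genes, up to 15 called members per direction by p, the member of each complex with the highest CPM per kilobase, paralogous isoforms, members that did not pass the filter and up to 3 genes per list. Copies in the nuclear genome were found with blastn between GENCODE transcripts. Alternatives were other scalings, filters, tools and thresholds, a replicate block, removal of the length trend and leaving out each library; the length trend combined with leaving out KO 1 was added after the data were seen.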

Additional observations from a re-analysis of the deposited data

How the results depend on the processing

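Every alternative kept the direction of the medians of both gene sets, and none reversed a call. Nuclear members called higher numbered 35 (limma voom, 1623 of all genes higher) to 59 (no filter, 2286) with other scalings, filters, tools or a non-robust spread, against 43 (1758). The single mt call became 2 without a filter, 2 with DESeq2's Wald test and 2 at an adjusted p under 0.1, and 0 with a minimum of 1 CPM, 0 with limma voom and 0 without the robust spread. At an adjusted p under 0.1, 5511 genes were called (2732 higher). The replicate block left 2081 genes called (862 higher, 1219 lower), 16 nuclear members and 0 mt genes; same-numbered libraries of the 2 groups did not deviate together (correlations -0.08, -0.12 and 0.03), so the numbers share no known pairing. Removing the length trend left 3537 genes called (1840 higher, 1697 lower), 27 nuclear calls (26 higher, 1 lower) and 0 mt calls. With KO 1 also left out, 6831 genes were called (3602 higher, 3229 lower), among them 57 nuclear members higher and 1 lower and 6 mt genes. Leaving out each library in turn, which leaves 2 pools in a group, gave 1191 (without WT 3) to 7556 (without KO 1) genes called, 464 to 3752 higher and 727 to 3804 lower. Nuclear calls ran from 1 (without WT 2) to 73 (without KO 1) and mt calls from 0 to 7, with medians of 0.19 to 0.32 and 0.11 to 0.32. Of the 15 named called members, 14 lost their call without WT 2, 11 without WT 3, 11 without KO 2, 9 without KO 3 and 4 without WT 1; Cox5b and Ndufb7 lost theirs in 1 of 17 alternatives each and Sdhd in 8. Apart from the smaller groups, the causes were not tested.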

Other observations

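Copies and overlaps were surveyed for all nuclear members because the counting settings are unknown. At an identity of at least 97% over at least 200 bases, 15 nuclear members have an annotated pseudogene copy. Protein-coding copies were not surveyed. The genes named here were picked by the size of that copy's count. For Ndufs5, a complex I accessory subunit, the copy BC002163 had 44.1% as many counts as the gene itself, and Ndufs5 overlapped between the groups, with 22.7, 16.5 and 22.8 CPM in WT and 16.4, 26.6 and 27.5 CPM in KO (log2 0.18, SE 0.21, adjusted p = 0.561). For Ndufa12 the copy Gm15920 had 7.97% as many counts. Apart from these and Cox7a2l, no single pseudogene copy reached 1% of its gene's count. Exons of 30 nuclear members overlap another counted gene, in 28 cases on the opposite strand, with the widest overlap in Ndufb6, where 39.0% of exonic bases lie under Smim27.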
